A study of Mus musculus with 12 samples.

Results

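Fads1, Fads2, Fads3, Elovl2 and Elovl5 encode the desaturases and elongases that handle polyunsaturated fatty acids, and their rows were taken by symbol from the mouse count table, 5 genes of 54532. They were chosen by name as a family, with their earlier fold changes between the vectors in these same libraries known, so the differences between vectors are a description of the 5 genes and support nothing beyond it. All 5 passed the filter on low counts in each comparison.

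Mammals cannot make linoleic acid or alpha-linolenic acid and take them from the diet. FADS2 and FADS1 place further double bonds in these chains and ELOVL5 and ELOVL2 lengthen them, which gives arachidonic acid, EPA and, after a shortening step in peroxisomes, DHA. The hepatocyte is known as a main site of this synthesis, and its desaturase and elongase genes are known targets of SREBP-1c, LXR and PPAR alpha, the factors that tie fatty acid supply to transcription. FADS3 lies beside FADS1 and FADS2 in the genome and is known for a desaturation of sphingoid bases.

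RNA was sequenced from liver and subcutaneous fat of male mice, and each combination of tissue and vector had 3 libraries among the 12. At 10 weeks of age the mice received a single tail vein injection of AAV8 in which the thyroxine-binding globulin promoter (TBGp), active in hepatocytes, drives full-length human HKDC1 (hHKDC1 OE), or of the AAV8-TBGp control (null), and all were then kept on a low-fat diet for 16 weeks. HKDC1 is a hexokinase family member, and the question was how its long-term presence in hepatocytes changes liver and fat. The title, the treatment label and the study's text place each library in its group, although the description label calls replicates 2 and 3 of the hHKDC1 OE group in both tissues knockouts; they were kept as hHKDC1 OE. Human HKDC1 was not analysed here, and mouse Hkdc1, with 0 to 8 counts in every library, checks nothing of the transgene. Nothing in the labels ties a fat library to a liver library of the same mouse.

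The libraries held 15496019 to 19954971 counts on genes. Alb, the hepatocyte albumin gene, took 6.88% to 7.11% of the counts in null liver, 3.98% to 5.46% in hHKDC1 OE liver, 0.158% to 0.482% in null fat and 0.0439% to 0.122% in hHKDC1 OE fat. Summed CPM of marker lists is given as counts per 1000000 of the library's total, while CPM of single genes is scaled by TMM. That of 10 adipocyte markers lay at 33100 to 42000 in null fat, 26300 to 41700 in hHKDC1 OE fat and at most 81.2 in liver, so each tissue carried the markers of its label. Replicate 2 stood apart within the hHKDC1 OE group of both tissues, with a chi-square per gene of 100 and 121 against the other two liver libraries and of 126 and 154 against the other two fat libraries. In fat it also held the fewest lymphocyte counts of its group. Null replicate 3 stood apart in fat, with 88.9 and 92.3 against the other null libraries, which had 24.7 between them, and it was the highest null fat library for all 5 genes. Values of the 5 genes that leaving out replicate 2 of hHKDC1 OE moved past the threshold are given with and without it, as are those of the list genes described for that tissue.

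Fads1 (chr19:10182888-10196870, plus strand), Fads2 (chr19:10064164-10101503, minus strand) and Fads3 (chr19:10041548-10059671, plus strand) lie side by side in GRCm38 coordinates. Elovl2 (chr13:41182381-41220405, minus strand) and Elovl5 (chr9:77917364-77984519, plus strand) stand alone. Among the coding sequences, Fads2 and Fads3 were identical over 71.1% of their aligned bases, Fads1 and Fads2 over 67.9%, Fads1 and Fads3 over 66.6%, and Elovl2 and Elovl5 over 66.9%. The longest run of bases shared by Fads2 and Fads3, 54 bases of the coding sequence, is shown as the stretch over which these transcripts cannot be told apart. By the study's methods the reads were longer than this run. Capitals mark the 17 bases that Fads1 also holds. In Fads2 it covers coding bases 1116 to 1169, with its ends at chr19:10064800-10065643, and in Fads3 coding bases 1131 to 1184, with its ends at chr19:10056255-10056436, in each case with an intron between.
Fads2 and Fads3: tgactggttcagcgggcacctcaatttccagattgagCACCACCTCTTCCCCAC
The run between Elovl2 and Elovl5 was 23 bases. The Fads2 model behind the deposited counts is 1508 bases long, against 3295 exon bases in GENCODE M21, of which 1642 lie outside the start and end given for the gene, so reads from those parts of Fads2 were not counted. Fads1 overlaps Mir6993, and the counting kept no strand.

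The level of the 5 genes in the null mice was compared between the tissues first. Per length, as the deposited FPKM, Fads2 was the highest in liver at 820 ± 235 (SD, n = 3), followed by Fads1 at 369 ± 109, Elovl2 at 306 ± 79.7 and Elovl5 at 281 ± 105, and Fads3 stood far below at 7.71 ± 3.41. The ranges of Fads1, Elovl2 and Elovl5 overlapped, so their order is not set by these libraries. In null fat the order was another one, with Fads3 at 157 ± 27.2 FPKM, Elovl5 at 24.9 ± 2.57, Fads1 at 24.1 ± 1.67, Fads2 at 22.2 ± 6.47 and Elovl2 at 6.20 ± 3.57. Elovl5, Fads1 and Fads2 overlapped there, while every Fads3 value lay above and every Elovl2 value below all 3 of them. The amount that would go with the Alb counts of these fat libraries at the ratio of liver, described further on, was 82.6% to 115% of Elovl2, 52.6% to 104% of Fads2 and 20.7% to 52.9% of Fads1, and its part in these levels and in their order was not tested.

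**Figure D1:**
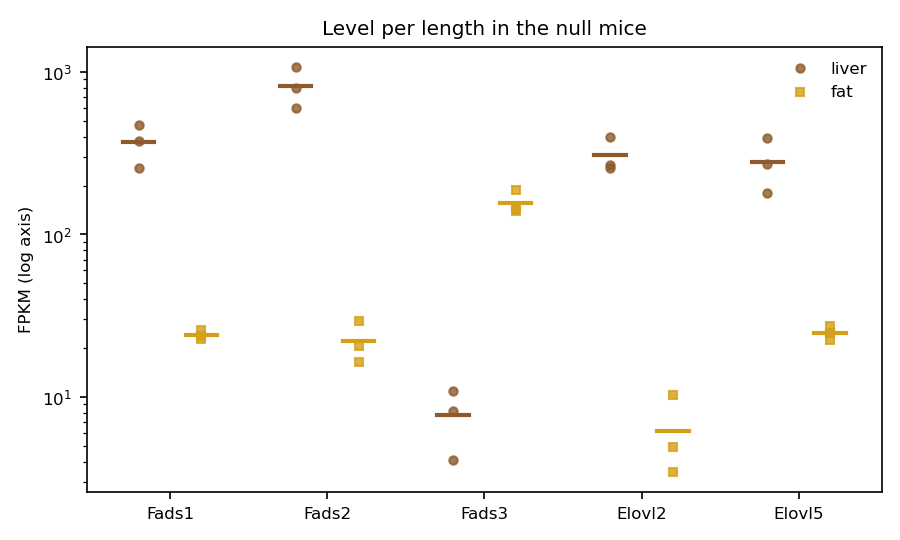
Level per length (FPKM, log axis) of the 5 genes in the 3 null liver libraries (circles) and the 3 null fat libraries (squares), with the mean as a line. Fads3 is the only one of the 5 whose fat values, 139 to 188, lie above its liver values, 4.10 to 10.9.

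All 5 genes passed the test between null fat and null liver (edgeR's quasi-likelihood test, Benjamini-Hochberg adjustment), where 64.3% of the 15259 genes tested passed. Fads3 was 19.5-fold higher in fat (log2 fold change 4.28, SE 0.38, adjusted p = 3.91e-05), one of the 33.8% of genes called higher there. The other 4 were among the 30.5% called lower in fat. Elovl2 differed most, with a log2 fold change of -5.69 (SE 0.47, adjusted p = 2.89e-05), then Fads2 with -5.27 (SE 0.34, adjusted p = 8.9e-06), Fads1 with -3.99 (SE 0.27, adjusted p = 1.17e-05) and Elovl5 with -3.55 (SE 0.31, adjusted p = 3.36e-05). With the library size alone as the scale the median of all genes moved from 0.09 to 0.98, and all 5 kept their direction and their call, with log2 fold changes of 5.17 for Fads3, -4.76 for Elovl2, -4.36 for Fads2, -3.09 for Fads1 and -2.64 for Elovl5.

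In liver, Fads1, Fads2 and Elovl2 lay below the null range in all 3 hHKDC1 OE libraries, while Fads3 and Elovl5 were low in 2 and high in the third. No gene of the 13351 tested passed the adjusted threshold in this comparison (0%), so none of the 5 did. At an unadjusted p under 0.05, 927 genes differed, and DESeq2 called 94 genes and limma on log2(FPKM + 1) called 3. Of the 5 genes, Fads1, Fads2 and Elovl2 had groups that did not overlap with hHKDC1 OE lower, which held for 6.18% of all genes, and these same 3 had an unadjusted p under 0.05 with a lower level, which held for 3.05% of all genes. Fads1 (adjusted p = 0.0171) and Fads2 (adjusted p = 0.000297) passed under DESeq2, which called 0.198% of genes lower. Both passed with Elovl5 in edgeR without a filter on low counts, which called 0.593% lower. In that fit the SE of Elovl5 was 0.2, against 0.5 in the main fit, although its groups overlapped. DESeq2 gave Elovl5 an unadjusted p of 0.265.

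Fads2, the delta-6 desaturase that takes the first step of the pathway, had 1150, 665 and 900 CPM in the null livers and 369, 456 and 469 in the hHKDC1 OE livers. The highest hHKDC1 OE library stayed below the lowest null library. Its log2 fold change was -1.07 (SE 0.22, unadjusted p = 0.000784, adjusted p = 0.355). Fads1, the delta-5 desaturase that makes arachidonic acid and EPA, had 1170, 655 and 970 CPM in null and 519, 560 and 500 in hHKDC1 OE, with a log2 fold change of -0.82 (SE 0.22, unadjusted p = 0.00394, adjusted p = 0.494). The spread differed between the groups, with a coefficient of variation of 27.9% in null and 5.87% in hHKDC1 OE.

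Elovl2, the elongase of the longest substrates on the way to DHA, had 1130, 748 and 788 CPM in the null livers and 594, 563 and 532 in the hHKDC1 OE livers. Its log2 fold change was -0.66 (SE 0.19, unadjusted p = 0.00722, adjusted p = 0.52). In Fads1, Fads2 and Elovl2 the null library of replicate 1 was the highest of the 6. Without it the log2 fold changes were -0.86 for Fads2, -0.63 for Fads1 and -0.45 for Elovl2.

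Elovl5, the elongase of the shorter polyunsaturated chains, had 981, 469 and 714 CPM in the null livers and 202, 856 and 267 in the hHKDC1 OE livers. Replicates 1 and 3 of hHKDC1 OE lay below every null library, and replicate 2 lay above 2 of the 3. The log2 fold change was -0.71 (SE 0.5, adjusted p = 0.835). Without replicate 2 of hHKDC1 OE it was -1.62 (SE 0.29, adjusted p = 0.0354), and Elovl5 was then the one gene of the 5 past the threshold, where 146 genes passed and 0.508% of the genes tested were called lower. It was smaller, and not past the threshold, without replicate 1 of hHKDC1 OE (-0.36), replicate 3 of hHKDC1 OE (-0.45) or replicate 1 of null (-0.42).

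Fads3 had 9.57, 19.7 and 26.6 CPM in the null livers and 5.47, 30.6 and 8.37 in the hHKDC1 OE livers, with replicate 2 again the highest of its group. Its log2 fold change of -0.32 (SE 0.58, adjusted p = 0.954) became -1.42 (SE 0.39, adjusted p = 0.161) without that library, and turned to 0.07 without replicate 1 of hHKDC1 OE. Scd1, the delta-9 desaturase, had the same order of libraries as Elovl5 in the hHKDC1 OE livers, with 3950, 16400 and 4460 CPM against 25900, 13500 and 12300 in null.

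**Figure D2:**
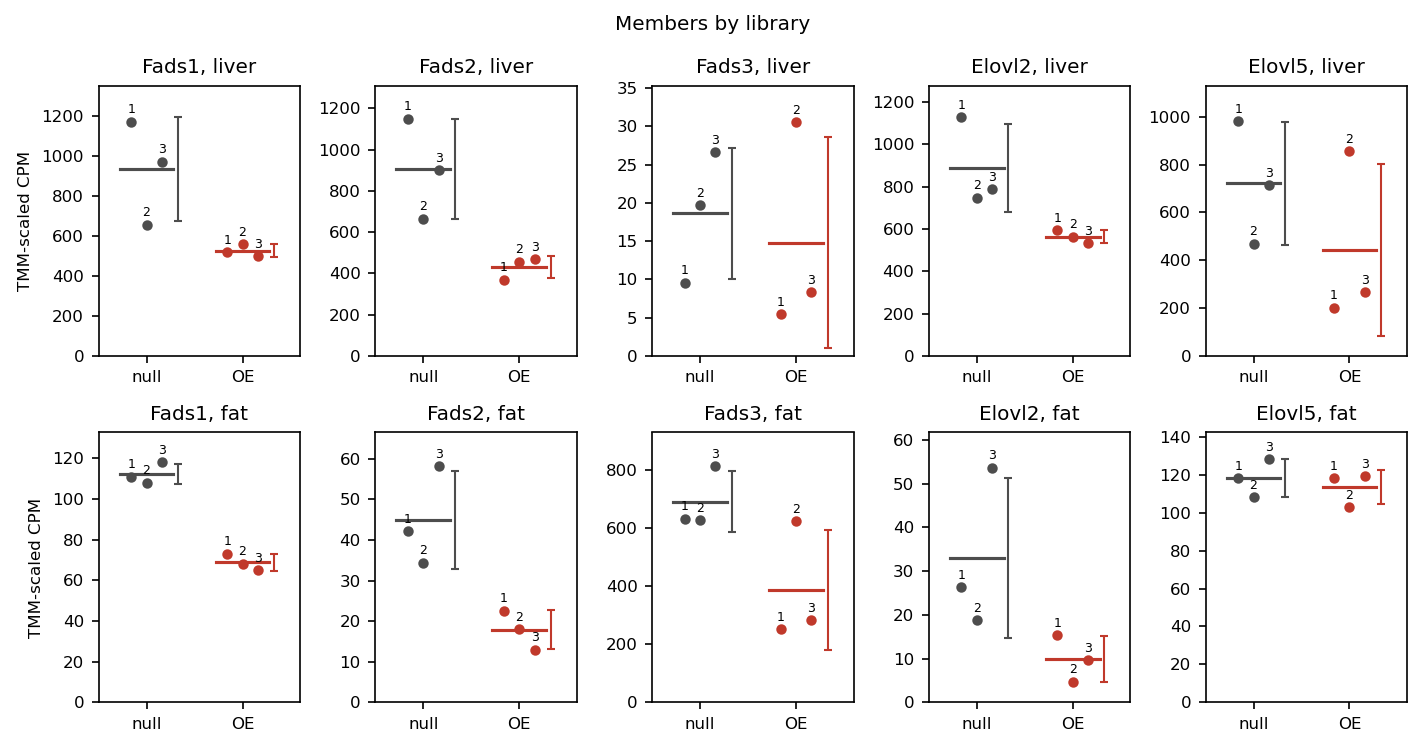
TMM-scaled CPM of each gene in each library, numbered by replicate, in liver (top) and subcutaneous fat (bottom), with the mean as a line and the SD as a bar (n = 3). Replicate 2 of hHKDC1 OE is at 856 for Elovl5 in liver and at 624 for Fads3 in fat, away from the other 2 libraries of its group in both cases.

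Hepatocyte markers were read beside the liver comparison. Summed CPM of 10 hepatocyte markers was 107000 to 110000 in null liver and 71700 to 92800 in hHKDC1 OE liver, with no marker at 0. Alb is in this list and made up most of the sum in every liver library. It took 6.88% to 7.11% of all counts in null and 3.98% to 5.46% in hHKDC1 OE. The sum thus mostly follows Alb, and the other markers of the list were not summed without it. Summed CPM of 8 epithelial markers, 3 of them at 0 in every liver library, was 311 to 319 in null and 350 to 389 in hHKDC1 OE, and that of 10 macrophage markers was 171, 200 and 296 against 503, 316 and 296. That of 8 brown or beige adipocyte markers was 181, 187 and 265 against 87.4, 205 and 90, with replicate 2 the highest of hHKDC1 OE as for Elovl5 and Fads3. Elovl3, another elongase gene, made up most of that sum, with 169, 176 and 249 against 79.9, 173 and 73.9 TMM-scaled CPM. In every liver library at least 2 of the 8 were at 0, so the sum is not read as a sign of such cells. In bulk tissue, fewer cells of a type and less RNA per cell cannot be told apart. Per 1000 Alb counts in the same library, Elovl2 had 15, 10.7 and 11.4 counts in null and 11.8, 11.2 and 14.0 in hHKDC1 OE, so that the groups overlapped and the log2 difference was 0.00 (exact two-sided permutation test, p = 1, where 0.1 is the smallest p that 3 against 3 allows). Fads1 had 15.6, 9.40 and 14.1 against 10.3, 11.1 and 13.1 per 1000 Alb counts, a log2 difference of -0.15 (exact permutation p = 0.6). Fads2 had 15.3, 9.55 and 13.1 against 7.32, 9.07 and 12.3, a log2 difference of -0.41 (exact permutation p = 0.2). Elovl5 had 13.1, 6.74 and 10.4 against 4.01, 17 and 7.02, a log2 difference of -0.31 (exact permutation p = 0.7), and Fads3 had a log2 difference of 0.02 (exact permutation p = 1). The scaling to Alb was chosen after the values were seen, and Alb differed between the groups itself. The part of the hepatocyte markers, or of the other lists, in the values of the 5 genes was not tested.

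The liver comparison of the wider pathway used lists of genes that hold none of the 5. No list gene passed the adjusted threshold, so the values describe the libraries. Of 20 PPAR alpha targets tested, all 20 were below 0 with a median log2 fold change of -0.58, beside a median of 0.01 over all genes, and 10 of them had groups that did not overlap, where 6.18% of all genes were lower without overlap. Without replicate 2 of hHKDC1 OE all 20 stayed below 0, the median was -0.77 and 6 passed, where 0.508% of all genes were called lower. Cyp4a14 and Cyp4a10, fatty acid omega-hydroxylases, had the largest differences with log2 fold changes of -2.21 (SE 1, adjusted p = 0.719) and -2.17 (SE 0.74, adjusted p = 0.606), and -4.62 (adjusted p = 0.0105) and -2.98 (adjusted p = 0.119) without that library. Of 18 genes of peroxisomal chain shortening, the step that yields DHA, 14 were below 0 with a median of -0.25. Ehhadh, the bifunctional enzyme of peroxisomal beta-oxidation, which is also in the list of PPAR alpha targets, had 347, 402 and 376 CPM in null and 149, 249 and 191 in hHKDC1 OE, with a log2 fold change of -0.93 (adjusted p = 0.355) and, without replicate 2, -1.14 (adjusted p = 0.0173). Abcd2, a peroxisomal fatty acyl-CoA transporter, had a log2 fold change of -0.86 (SE 0.39, adjusted p = 0.719) and -1.33 (adjusted p = 0.152) without it. The highest values in that list were those of Amacr, with 0.17, and Acox3, with 0.14.

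Of 17 SREBP-1c and LXR lipogenic targets, 13 were below 0, with a median of -0.34, and -0.55 without replicate 2 of hHKDC1 OE. Scd1 had a log2 fold change of -1.06 (SE 0.54, adjusted p = 0.764), which was -2.03 (adjusted p = 0.0198) without that library, and Thrsp, a regulator of lipogenesis, one of -0.95 (SE 0.3, adjusted p = 0.586), while Abcg1, a sterol exporter, had 0.43. Srebf1 itself, which encodes SREBP-1, had 504, 366 and 205 CPM in null and 420, 436 and 262 in hHKDC1 OE, a log2 fold change of 0.06 (SE 0.31), and -0.07 without replicate 2. Ppara had 143, 136 and 121 against 88.9, 107 and 108 CPM, a log2 fold change of -0.40 (SE 0.15, adjusted p = 0.618), with groups that did not overlap. Insig2, which holds SREBP precursors in the endoplasmic reticulum, had 240, 186 and 196 against 90.3, 172 and 147 CPM, a log2 fold change of -0.60 (SE 0.23, adjusted p = 0.641). Insig1 had -0.19 (SE 0.36), Nfya, a subunit of the CCAAT-binding factor, -0.43 (SE 0.32; -0.77 without replicate 2), Mlxipl, which encodes ChREBP, 0.60 (SE 0.33; 0.21 without it), and Ppargc1b, a coactivator, 0.66 (SE 0.28). The 20 regulators as a whole had a median of 0.02.

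Of 11 tested genes of the elongation cycle and of electron transfer to the desaturases, 8 were below 0 with a median of -0.15, which was -0.03 (7 below 0) without replicate 2 of hHKDC1 OE and -0.09 with the library size alone. Cyb5a, the cytochrome b5 that feeds electrons to the desaturases, had 855, 864 and 929 CPM in null and 662, 702 and 659 in hHKDC1 OE (log2 fold change -0.39, SE 0.15, adjusted p = 0.631). Hacd1, a dehydratase of the elongation cycle, had -0.44, Cyb5r1 0.56 and Hacd4 0.96, the last at under 3 CPM in every library. Of 16 genes of polyunsaturated fatty acid activation and phospholipid remodelling, 14 were below 0 with a median of -0.31, among them Mfsd2a, a DHA transporter, with -0.89 (-2.23, adjusted p = 0.00118, without replicate 2 of hHKDC1 OE), and Lpcat1 with -0.70, while Pla2g4a had 0.12 and Fabp5 0.24. Of 7 other elongases and desaturases, 4 were below 0 with a median of -0.10 that was -0.04 without replicate 2 and with the library size alone, and 0.07 over the 12 that DESeq2 tested. They ran from Scd1 and Elovl3, with -0.86 (-1.36, adjusted p = 0.0162, without replicate 2), to Elovl1, with 0.09, and Fads6, with 0.25. The 6 tested neighbours of the Fads cluster had a median of 0.20, with only Syt7 below 0, at -0.29, and Tmem258, at 0.28, and Dagla, at 0.61, as the highest.

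In subcutaneous fat, Fads1, Fads2, Fads3 and Elovl2 had groups that did not overlap in TMM-scaled CPM, with hHKDC1 OE lower. That is 4 of the 5 genes, against 10.2% of all genes on that scale. For Fads3 this rested on the scaling. In the deposited FPKM its groups overlapped, with 144 in replicate 2 of hHKDC1 OE and 139 to 188 in null. None of the 5 passed the adjusted threshold, and of the 16380 genes tested none did (0%). At an unadjusted p under 0.05, 2903 genes differed, DESeq2 called 1446 and limma on log2(FPKM + 1) called 1. Fads1, Fads2 and Elovl2 had an unadjusted p under 0.05 with a lower level, which held for 6.39% of all genes. DESeq2 called these 3 with adjusted p from 0.00156 to 0.0113, and 0.647% of all genes lower and 4.2% higher. Without a filter, edgeR called Fads1 and Fads2 and 0.268% lower, and with all 12 libraries in 1 fit it called Fads2 and Elovl2 and 0.621% lower. Elovl2 was at the threshold in that last fit, with an adjusted p that rounds to 0.05, and had 0.0519 without a filter.

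Fads1 had 111, 108 and 118 CPM in null fat, against 73.2, 68.3 and 65.1 in hHKDC1 OE fat. The replicates of each group lay close together, with a coefficient of variation of 4.79% and 5.92%. The log2 fold change was -0.70 (SE 0.13, unadjusted p = 0.000759, adjusted p = 0.133). Fads2 had 42.2, 34.4 and 58.2 CPM in null and 22.6, 18.1 and 13.0 in hHKDC1 OE, a log2 fold change of -1.33 (SE 0.28, unadjusted p = 0.0019, adjusted p = 0.133).

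Fads3, the gene of the 5 with the highest level in fat, had 633, 628 and 813 CPM in null fat, against 253, 624 and 284 in hHKDC1 OE fat. Replicate 2 of hHKDC1 OE missed the null range by a few CPM on this scale, and lay within it in the deposited FPKM (144, with 139 to 188 in null). The other hHKDC1 OE libraries were far below the null range on both scales. The log2 fold change was -0.84 (SE 0.37, unadjusted p = 0.0572, adjusted p = 0.293) and, without replicate 2, -1.37 (SE 0.19, adjusted p = 0.00516). In that fit of 2 hHKDC1 OE libraries, Fads1 (-0.71, adjusted p = 0.0143) and Fads2 (-1.35, adjusted p = 0.0322) were past the threshold too, at nearly the same log2 fold change as with all libraries, where 3251 genes passed and 7.53% of the genes tested were called lower.

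Elovl2 had the lowest level of the 5 in fat, with 26.4, 18.8 and 53.6 CPM in null and 15.4, 4.74 and 9.71 in hHKDC1 OE. The log2 fold change was -1.73 (SE 0.53, unadjusted p = 0.0135, adjusted p = 0.177), and -1.22 without replicate 3 of null, its highest library. Without that library Fads1 had -0.69, Fads2 -1.12 and Fads3 -0.71. Elovl5 had 118, 108 and 128 CPM in null and 118, 103 and 119 in hHKDC1 OE, a log2 fold change of -0.06 (SE 0.14, adjusted p = 0.832). Its groups overlapped throughout, and the sign turned to 0.09 with the library size alone as the scale.

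**Figure D3:**
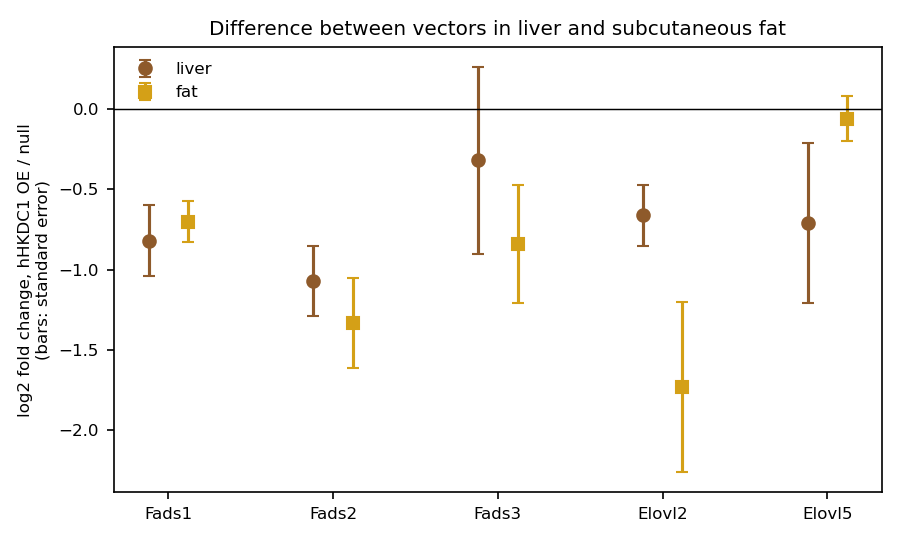
Log2 fold change of hHKDC1 OE over null with its standard error (edgeR, 3 libraries against 3) in liver (circles) and subcutaneous fat (squares). The values run from -1.07 for Fads2 to -0.32 for Fads3 in liver and from -1.73 for Elovl2 to -0.06 for Elovl5 in fat.

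The difference between the 2 tissues was tested itself, as an interaction over the 12 libraries. None of the 5 genes passed, nor did any of the 17070 tested (0%), with 2163 genes at an unadjusted p under 0.05, 497 called by DESeq2 and 0 by limma. Elovl2 had the most negative interaction (log2 -0.98, SE 0.6, adjusted p = 0.524) and Elovl5 the most positive (log2 0.74, SE 0.63, adjusted p = 0.663). Without replicate 2 of hHKDC1 OE liver the interaction of Elovl5 was 1.63 (SE 0.39, unadjusted p = 0.00157, adjusted p = 0.183), and with each other library left out it lay between 0.40 and 0.98. That of Elovl2 ranged from -1.63 without replicate 1 of hHKDC1 OE fat to -0.62 without replicate 3 of null fat, and neither gene passed in any of these fits. The adjusted p was 0.829 for Fads1, 0.871 for Fads3 and 0.898 for Fads2. Elovl5 overlapped between the groups in fat, but this does not show that its difference between vectors is another one than in liver.

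Hepatocyte markers were detected in the fat libraries at unequal levels, and the 5 genes stood in different proportions to them. Summed CPM of 10 hepatocyte markers was 2380, 2380 and 7660 in null fat, against 2150, 777 and 1180 in hHKDC1 OE fat, with no marker at 0. Elovl2 per 1000 Alb counts was 15, 10.8 and 11.2 in null fat, beside 15, 10.7 and 11.4 in null liver, and 13.3, 11.5 and 15 in hHKDC1 OE fat, beside 11.8, 11.2 and 14.0 in hHKDC1 OE liver. The ratio was thus nearly that of liver in all 6 fat libraries, and its order over the replicate numbers was the same in both tissues. Fads2 per 1000 Alb counts was 24.0, 19.7 and 12.1 in null fat, against 19.5, 43.7 and 20.1 in hHKDC1 OE fat, and Fads1 had 62.9, 62.0 and 24.6 against 63.4, 165 and 101.

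The amount of each gene that would accompany the Alb counts of a fat library was computed from the mean ratio to Alb in the liver libraries of the same vector, a calculation chosen after the values were seen. For Elovl2 it came to 82.6%, 115% and 111% of the count in null fat, against 92.4%, 107% and 82.0% in hHKDC1 OE fat. At most 76 counts of a library were left for Elovl2 once this amount was taken off, and in 3 libraries less than 0. Its log2 fold change moved from -1.73 to -0.69 (SE 1.9, adjusted p = 0.861), a value that rests on setting the counts of those 3 libraries to 0.
For Fads2 it came to 52.6%, 64.0% and 104% in null fat, against 49.0%, 21.9% and 47.7% in hHKDC1 OE fat. Taken off, it left 329, 200 and -45 counts in the null libraries against 243, 289 and 110 in the hHKDC1 OE libraries, and the groups then overlapped. The log2 fold change of Fads2 moved from -1.33 to -0.01 (SE 1.27, adjusted p = 0.998), a value that rests on setting the negative count to 0.

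For Fads1 the same amount was 20.7%, 21.0% and 52.9% of the null counts and 18.2%, 6.98% and 11.4% of the hHKDC1 OE counts. Per 1000000 counts of the library's total, 81.4, 77.5 and 55.9 counts were left in null and 63.4, 67.5 and 59.9 in hHKDC1 OE, with a log2 fold change of -0.36 (SE 0.18, adjusted p = 0.347). For Elovl5 it was 14.9% to 37.8% in null and 3.76% to 9.14% in hHKDC1 OE, which left 93.4, 82.7 and 79.7 against 113, 105 and 118 per 1000000 counts of the library's total. These values hold no TMM scaling, unlike the fit, and the share of all genes that parted in this way was not computed. The log2 fold change of Elovl5 in the fit turned from -0.06 to 0.21 (SE 0.14, adjusted p = 0.452). For Fads3 it stayed at or below 0.157% in every fat library, and its log2 fold change was -0.87 (SE 0.38, adjusted p = 0.294). None of the 5 genes passed in that fit, and 0 of 16066 genes did. The calculation takes Alb as a measure of liver RNA, and the part of such RNA in the lower values was not tested.

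**Figure D4:**
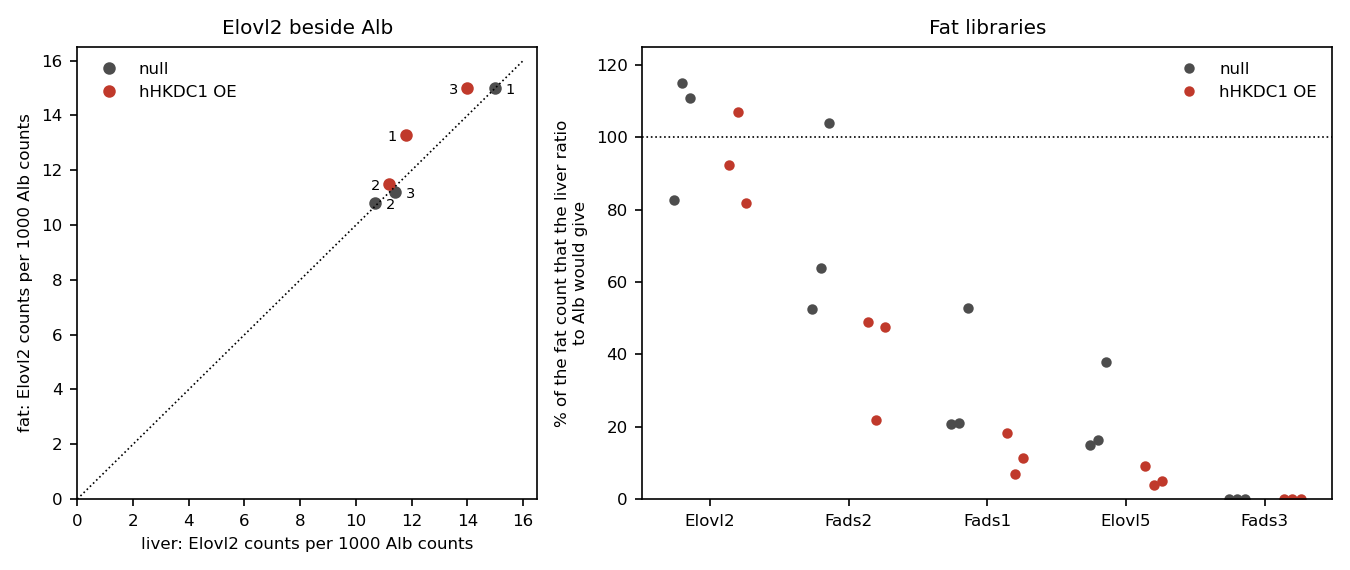
Left, Elovl2 counts per 1000 Alb counts in the liver library (x axis) and the fat library (y axis) of the same vector and replicate number, with the line of equal values dotted; the replicate numbers are labels and are not known to mark the same mouse. Right, the percentage of each gene's count in the 6 fat libraries that the liver ratio to Alb would give, from 82.0% to 115% for Elovl2 to 0.157% at most for Fads3.

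Fads3 was read beside the other cell types of the fat depot. Summed CPM of 10 B cell markers was 2.31, 1.98 and 4.08 in null fat, against 1020, 57.1 and 747 in hHKDC1 OE fat, that of 10 T cell markers 7.22, 7 and 20.3 against 651, 49.5 and 691, and that of 10 macrophage markers 467, 227 and 533 against 1140, 781 and 1370. Replicate 2 of hHKDC1 OE, with the Fads3 level nearest to null, was the lowest of its group in all 3 lists. Summed CPM of 8 skeletal muscle markers was 17500, 20900 and 535 in null and 16400, 1120 and 2630 in hHKDC1 OE, so that within each group the libraries ran in the reverse order of Fads3, while the groups overlapped. Summed CPM of 8 brown or beige adipocyte markers was 115, 186 and 73.4 in null and 414, 115 and 251 in hHKDC1 OE, with replicate 2 again the lowest of its group, and that of 8 epithelial markers was 160, 22.8 and 85.3 against 11.7, 19.6 and 16.2, without overlap. Per 1000 counts of the 10 adipocyte markers, Fads3 had 17.7, 15.2 and 19.4 counts in the null libraries against 10.2, 15.9 and 9.11 in the hHKDC1 OE libraries, so replicate 2 lay within the null range and the other two libraries below it. The part of any of these cell types in the lower Fads3 values was not tested.

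Of the wider pathway in fat, again no list gene passed the adjusted threshold, with all 3 hHKDC1 OE libraries in the fit. With the library size alone as the scale, the median of all genes moved from -0.05 to 0.11, and 7 in place of 10 genes of the elongation cycle and electron transfer (median -0.18) and 6 in place of 11 of the regulators (median 0.11) lay below 0, while the 18 peroxisomal genes kept 12 below 0 (median -0.06). On that scale the PPAR alpha targets had 10 in place of 13 below 0 (median -0.10), the activation and remodelling genes 11 in place of 13 (median -0.04), the other elongases and desaturases 6 in place of 8 (median -0.25) and the Fads cluster neighbours 1 in place of 4 (median 0.17). Without replicate 2 of hHKDC1 OE, list genes are read against the 7.53% of all genes called lower and the 11.4% called higher in that fit. Of 12 tested genes of the elongation cycle and electron transfer, 10 were below 0 with a median log2 fold change of -0.34 (-0.63 without replicate 2 of hHKDC1 OE), beside -0.05 over all genes. Hacd2, a dehydratase of the elongation cycle, had 302, 339 and 320 CPM in null and 147, 250 and 201 in hHKDC1 OE (log2 fold change -0.69, SE 0.22, adjusted p = 0.19), and -0.89 (adjusted p = 0.0198) without replicate 2 of hHKDC1 OE. Cyb5r2 had -1.05 (SE 0.64), and -2.09 (adjusted p = 0.0279) without it, Hacd3 0.03 and Cyb5r4 0.26. Of 11 other elongases and desaturases, 8 were below 0 with a median of -0.40, from Elovl4, with -1.29 (-2.35 without replicate 2), and Elovl3, with -1.28, to Elovl7, with 0.28, and Degs2, with 0.53. Scd1 was at 46300 to 63500 CPM in null and at 30800 to 38300 in hHKDC1 OE, which did not overlap. Of 18 peroxisomal genes, 12 were below 0 with a median of -0.21, from Acaa1b, with -1.46, and Acox2, with -1.35, to Ehhadh, with 0.23, and Acot8, with 0.27.

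Of 20 genes of polyunsaturated fatty acid activation and remodelling in fat, 13 were below 0 with a median of -0.20, and the extremes lay on both sides. Lpcat2 had 1.95, 0.930 and 1.12 CPM in null and 7.77, 2.44 and 10.6 in hHKDC1 OE (log2 fold change 2.37, SE 0.6, adjusted p = 0.138), and Lpcat4 4.50, 4.46 and 5.56 against 16.1, 8.46 and 14.9 (1.44, SE 0.31, adjusted p = 0.133). Without replicate 2 of hHKDC1 OE their log2 fold changes were 2.77 (adjusted p = 0.00634) and 1.67 (adjusted p = 0.00536). Both encode lysophospholipid acyltransferases, and in both replicate 2 was the lowest of hHKDC1 OE, as in the lymphocyte lists, whose part in these values was not tested. Mfsd2a had 7.54, 11.3 and 23.5 CPM against 4.64, 2.00 and 3.32 (log2 fold change -2.09, SE 0.51, adjusted p = 0.136), and Acsl6 had -2.04 (SE 1.66). Mfsd2a, like Elovl3, Acox2, Cyp4a10, Cyp4a14, Acaa1b, Pklr and Elovl2, was highest in null replicate 3, the fat library with the highest hepatocyte markers (7660 CPM, against 2380 in the other null libraries and 777 to 2150 in hHKDC1 OE), as was Hnf4a, and the part of those markers in these values was not tested.

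Among the 20 regulators in fat the median was -0.04. Srebf1 had 406, 400 and 396 CPM in null and 371, 372 and 358 in hHKDC1 OE, a log2 fold change of -0.13 (SE 0.15) that turned to 0.03 with the library size alone as the scale. Insig2 had 75.3, 68.6 and 66.7 against 46.1, 57.8 and 49.0 CPM (log2 fold change -0.46, SE 0.14, adjusted p = 0.179; -0.57, adjusted p = 0.0266, without replicate 2 of hHKDC1 OE). Ppara had -0.31 (SE 0.3), Insig1 -0.13 and Mlxipl -0.02, both of the latter with the opposite sign under the library size alone. Hnf4a, a hepatocyte nuclear factor, had -1.28 (SE 0.58), and Nfya and Srebf2 had 0.58 (SE 0.21) and 0.65 (SE 0.23), and 0.75 (adjusted p = 0.0147) and 0.84 (adjusted p = 0.0117) without that library. The 17 SREBP-1c and LXR targets had a median of -0.07 (0.08 with the library size alone), with Pklr at -1.53, Gpam, which starts glycerolipid synthesis, at -0.85 (SE 0.15, adjusted p = 0.133), Acly at 0.42 and Abcg1 at 0.80. Without replicate 2, Gpam had -0.92 (adjusted p = 0.0107) and Abcg1 1.04 (adjusted p = 0.0124). The 19 tested PPAR alpha targets had a median of -0.27, with Cyp4a14 at -3.35 (10.1, 12.7 and 49.7 CPM in null, 3.84, 1.37 and 1.84 in hHKDC1 OE) and Cyp4a10 at -3.31, which without replicate 2 were -3.08 (adjusted p = 0.0464) and -2.96 (adjusted p = 0.0346), Slc25a20 at 0.13 and Ehhadh at 0.23. The 8 neighbours of the Fads cluster had a median of 0.02, from Dagla, at -0.66, and Myrf, at -0.15, to Fen1, at 0.45, and Tmem258, at 0.47.

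**Figure D5:**
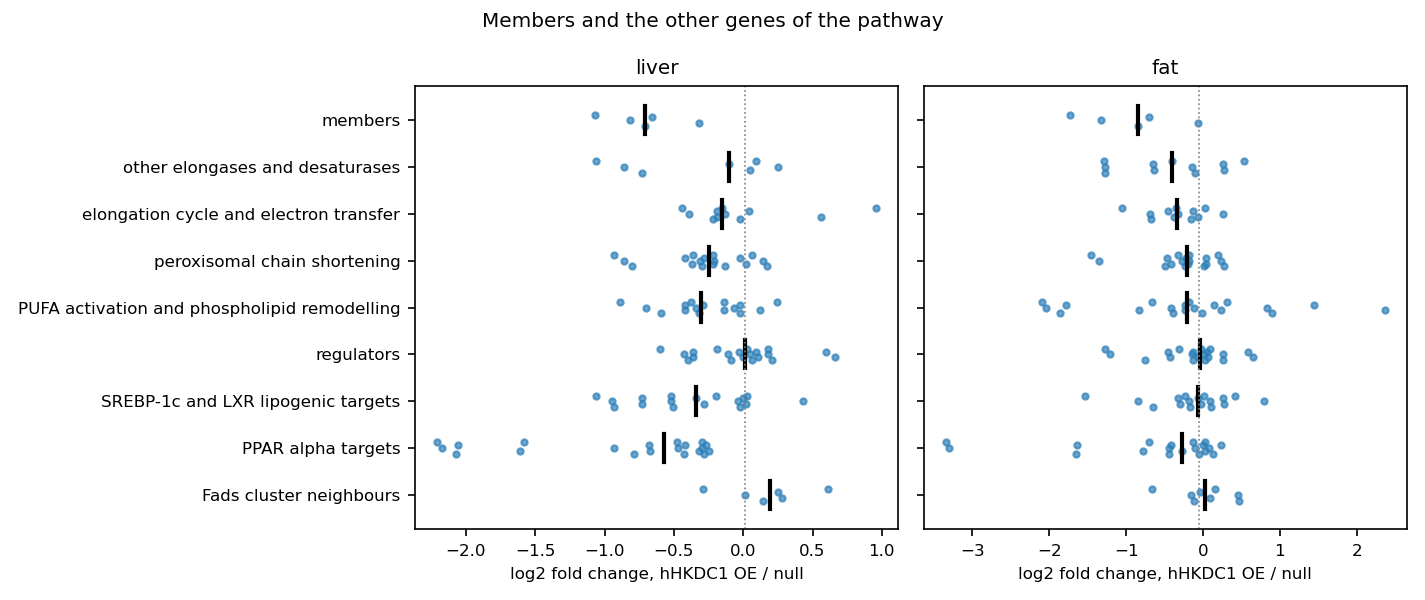
Log2 fold change of hHKDC1 OE over null for each tested gene (points) of the 5 genes (members) and of each pathway list, with the median of the list as a black line and the median of all genes tested as a dotted line. In liver all 20 PPAR alpha targets lie below 0, with a median of -0.58, and the median of the 5 genes is -0.71.

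The balance of the 5 genes within a library does not depend on the scaling between libraries, and 5 ratios of FPKM were compared by exact two-sided permutation tests that cannot go below 0.1. Fads2 to Fads1 in fat was 0.874, 0.730 and 1.13 in null and 0.706, 0.607 and 0.457 in hHKDC1 OE, a log2 difference of -0.63 (exact permutation p = 0.1, adjusted p = 0.5 over the 5 ratios). The groups did not overlap, and the hHKDC1 OE libraries were lower. The amount that the liver ratio to Alb would give was 52.6% to 104% of Fads2 in the null libraries and 21.9% to 49.0% in the hHKDC1 OE libraries, and its part in this ratio was not tested. In liver it was 2.25, 2.33 and 2.13 against 1.63, 1.87 and 2.15, a log2 difference of -0.26 (exact permutation p = 0.2, adjusted p = 0.5). Fads1 to Fads3 differed by -0.17 in liver (exact permutation p = 0.9) and 0.24 in fat (exact permutation p = 0.6), and Elovl5 to Elovl2 in liver by -0.31 (exact permutation p = 0.6), with 1.71 in replicate 2 of hHKDC1 OE against 0.382 and 0.565 in the other two libraries.

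How the 5 genes varied together was read over the 12 libraries with the mean of each tissue taken off, as a description of libraries that share vectors and tissues. Fads1 and Fads2 were the closest pair, with a Pearson r of 0.93. Fads2 and Elovl2 had 0.84, Fads1 and Elovl2 0.74, and Fads3 and Elovl2 0.22. Among 11721 protein-coding genes, those most like Fads1 were Ahcyl1 (r = 0.94), Fads2 and Oat (r = 0.89), and those most like Fads2 were Fads1, Zfp970 (r = 0.93) and Ttpa (r = 0.92). Elovl2 went with Aass (r = 0.98) and with the hepatocyte gene Alb (r = 0.97). Fads3 went with Porcn (r = 0.94), Plin4 (r = 0.94), a lipid droplet protein gene, and Robo4 (r = 0.93). Elovl5 went with Mogat1 (r = 0.91), Cd36 (r = 0.91), which encodes a fatty acid transporter, and Rcan3 (r = 0.90), and this likeness was carried by the 6 liver libraries, with r of 0.95, 0.99 and 0.96 there and of -0.15, -0.14 and -0.15 in the 6 fat libraries.

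The sequence before the start of Elovl5 and Fads3 is shown because these 2 genes, alone of the 5, did not lie below the null range in replicate 2 of hHKDC1 OE liver. The windows are the 250 bases before the RefSeq start (GRCm38.p6), written on the strand of the gene, with capitals for matches to CCAAT, to CACGTG (the E-box) and to GGGCGG (the GC box), each searched on both strands, with no overlap between matches here.
Elovl5, chr9:77917115-77917364: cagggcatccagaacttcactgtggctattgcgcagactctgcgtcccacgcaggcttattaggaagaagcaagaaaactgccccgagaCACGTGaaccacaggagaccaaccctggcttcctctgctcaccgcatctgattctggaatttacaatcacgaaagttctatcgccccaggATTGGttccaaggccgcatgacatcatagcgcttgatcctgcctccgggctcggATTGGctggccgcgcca
Fads3, chr19:10041298-10041547: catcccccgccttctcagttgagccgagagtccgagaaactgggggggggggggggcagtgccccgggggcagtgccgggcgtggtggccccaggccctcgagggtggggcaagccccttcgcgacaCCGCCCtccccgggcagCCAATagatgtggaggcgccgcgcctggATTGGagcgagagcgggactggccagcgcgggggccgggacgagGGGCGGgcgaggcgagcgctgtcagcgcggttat
Windows that run 50 bases further, past the start, were matched for 4 of the 5 genes among 32851. CCAAT was present in those of Elovl5 and Fads3, 2 matches each, and not in those of Elovl2 and Fads2, and it was present in 37.4% of all windows. CACGTG was present only in that of Elovl5, against 7.15% of all windows, and GGGCGG in those of Elovl2, Fads2 and Fads3, against 35.7%. TGACGTCA (the cyclic AMP element) was present in that of Elovl5, against 1.79%, and TCACNCCAC (the sterol element) in none, against 1.24%. These are matches of letters in a short window and show no binding.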

How the data were processed

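The 5 genes and the pathway and marker lists were chosen with earlier results of these data known. The authors prepared libraries without strand information, mapped reads with STAR (2.5 in the submitters' processing notes) and counted fragments with HTSeq 0.6.1, and the deposited counts are whole numbers without normalization. The methods name the human genome, whereas GENCODE M21 (mouse, GRCm38) holds 99.8% of the 54532 identifiers, 98.0% at an identical position, and coordinates are given in that build. The deposited FPKM of the authors were, within 1% for 100% of 252371 values, the count divided by gene length and a constant per library. The authors' fold changes and p-values from DESeq2 were not used.

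Counts were tested on the whole table with edgeR 4.0.16 (R 4.3.3; TMM, filterByExpr, glmQLFit and glmQLFTest, Benjamini-Hochberg adjustment, threshold 0.05), separately for liver, fat and null fat against null liver, and over all 12 libraries for the interaction. CPM of single genes was scaled by TMM, and the summed CPM of marker lists was taken over the library's total without that scaling. Named genes were the 5, the 2 largest rises and falls of each list and tissue, any list gene past the threshold (up to 6 for each list and tissue), Srebf1, Ppara, Insig1, Insig2 and Mlxipl, the 3 genes most like each of the 5 by Pearson r of log2 CPM (prior count 2), and Alb and Hkdc1. Scd1 in fat was chosen after its values were seen. A few of the genes so named are not reported here. The study's text gives 3 mice for each group in fat, while the labels do not say which mouse a library came from, so p-values measure the spread between these libraries. Alternatives were DESeq2 1.42.0, limma 3.58.1 on log2(FPKM + 1) and log2(FPKM + 0.1) (mean FPKM of at least 0.1), other scalings and filters, the replicate number as a block, all 12 libraries in 1 fit and each library left out, and, added after seeing the data, ratios to Alb. The replicate numbers were checked for pairing. Deviations of same-numbered liver libraries correlated at 0.22, 0.18 and 0.09 and those of fat at 0.01, -0.12 and 0.03, so they were not taken as pairs. Between null liver and null fat the same numbers correlated at 0.30, 0.06 and 0.18, each highest with its own number, which also does not meet the rule of over 0.1 for every pair. Between hHKDC1 OE liver and hHKDC1 OE fat they correlated at 0.02, 0.09 and 0.06, and replicate 1 of liver was highest with number 3 of fat. In simulated counts in which 200 genes differed by a log2 fold change of 2, edgeR recovered 156 in the liver comparison of 13062 genes and 104 in the fat comparison of 15936 genes, with 10 false calls each, and DESeq2 recovered 165 with 31 false calls in liver (13351 genes) and 137 with 63 false calls in fat (16380 genes).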

Additional observations from a re-analysis of the deposited data

How the results depend on the processing

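Of 355 values of the 5 genes under the alternatives, 344 kept their direction. In liver the number of genes called was 94 with DESeq2, 2 with the library size alone, 327 without a filter on low counts, 3 and 5 with limma at a pseudocount of 1 and 0.1, and 0 to 146 with each library left out. Of the 5 genes, DESeq2 called 2 in liver (Fads1, adjusted p = 0.0171, and Fads2, adjusted p = 0.000297; 0.198% of genes were called lower), the fit without a filter called 3 (Fads1, Fads2 and Elovl5; 0.593%), and leaving a library out 0 to 1, the 1 being Elovl5 without replicate 2 of hHKDC1 OE. In fat the number of genes called was 1446 with DESeq2, 803 without a filter, 876 with all 12 libraries in 1 fit, 1 with limma at a pseudocount of 1, and 0 to 3251 with each library left out, the last without replicate 2 of hHKDC1 OE. Of the 5 genes, DESeq2 called 3 in fat (Fads1, Fads2 and Elovl2, with 0.647% of genes called lower) and the fit without a filter 2 (Fads1 and Fads2, with 0.268%). The fit of all 12 libraries called 2 (Fads2 and Elovl2, with 0.621%), Elovl2 with an adjusted p that rounds to 0.05, and leaving a library out 0 to 3. For the interaction the number of genes called was 497 with DESeq2, 479 without a filter and 0 to 1211 with each library left out, again the last without replicate 2 of hHKDC1 OE fat, and none of the 5 genes was called in any of these. With the replicate number as a block, edgeR called 17 genes in liver and 168 in fat, and none of the 5 genes; each null liver library correlated best with its own number in hHKDC1 OE, a hint from the data and not from the design. The cause of these differences was not tested. Null fat against null liver kept all 5 genes called under every alternative run.

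With each library left out, Fads3 in liver ranged from -1.42 to 0.07 (0.02 without replicate 3 of null), and per Alb count it had 0.02, as Elovl2 had 0.00. In fat, Elovl5 had 0.09 with the library size alone and 0.21 with the liver share taken off, Srebf1 and Insig1 0.03, Mlxipl 0.13 and Myrf 0.00 with the library size alone. In the interaction, with each library left out, Fads1 ranged from -0.02 to 0.40, Fads2 from -0.53 to 0.00 and Fads3 from -1.16 to 0.64, the last without replicate 2 of hHKDC1 OE liver, Elovl2 from -1.63 to -0.62 and Elovl5 from 0.40 to 1.63. Among the ratios, Fads1 to Fads3 ranged from -0.68 to 0.51 in liver and from -0.05 to 0.65 in fat, and Elovl5 to Elovl2 in liver from -0.94 to 0.14. Of the lists, DESeq2 called 5 PPAR alpha targets, 1 peroxisomal gene (Ehhadh, which is among those 5) and 1 lipogenic target in liver, all lower. In fat it called 3 PPAR alpha targets, 1 peroxisomal gene, 1 regulator and 1 lipogenic target lower, and 4 remodelling genes, Lpcat2 and Lpcat4 higher and Fabp1 and Mfsd2a lower. DESeq2 called 0.198% of all genes lower in liver, and 0.647% lower and 4.2% higher in fat. Without replicate 2 of hHKDC1 OE, a fit chosen after seeing the data, 6 PPAR alpha targets, 1 peroxisomal gene (Ehhadh again), 1 remodelling gene, 2 other elongases and desaturases and 1 lipogenic target (Scd1, also among those 2) were called in liver, and 3 PPAR alpha targets, 2 peroxisomal, 3 remodelling, 3 elongation cycle, 2 lipogenic, 5 regulator and 2 other elongase and desaturase genes in fat. All those in liver were lower (0.508% of all genes), and in fat the 3 remodelling genes, 2 of the regulators, 1 lipogenic gene and 1 other desaturase were higher (11.4% of all genes) and the rest lower (7.53%), so that several of these shares are near those of all genes. Srebf1 in liver turned to -0.07 and Mlxipl in fat to 0.08 in that fit.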
